A study of Rattus norvegicus with 22 samples.

Results

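The homeostatic microglia genes followed here were P2ry12, Cx3cr1, Csf1r, Trem2, Tyrobp, Sall1, Tmem119, Aif1 and Ctss. They were taken from the count table by an exact match of their symbols, and the 9 genes were all found once among 32883 genes. The data were bulk RNA-seq counts from the ventral part of the C3-C6 cervical spinal cord of 22 Sprague-Dawley rats, young adults of 3 to 4 months. Of these rats 5 were males with testes and 5 were gonadectomized (GDX) males, while 6 were females with ovaries and 6 were ovariectomized (OVX), each rat giving 1 library. In GDX males both testes and in OVX females both ovaries had been removed under isoflurane with buprenorphine for pain relief, and tissue was taken 2 weeks after surgery, following perfusion with saline. The intact rats were age-matched and kept their gonads, and a sham operation is not described for them in the sources used here, so that loss of the gonads and surgery itself cannot be told apart. The comparisons asked whether loss of the testes or the ovaries was accompanied by a different level of these genes in motor regions of the cord.

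Microglia are the resident macrophages of the brain and spinal cord. In the undisturbed tissue they carry a set of surface receptors, signalling adaptors and nuclear factors that mark their surveying state, and they survive on signals received through the receptor encoded by Csf1r. Several of these genes, P2ry12 and Tmem119 among them, are lowered when microglia become activated, whereas Trem2 and lysosomal genes are raised in some activated states. Sex steroids are known to act on glia, and microglia differ between the sexes in several regions of the nervous system.

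The libraries held between 12371756 and 17571887 counts in genes. Levels are given as counts-per-million (CPM) after scaling of the library totals by the trimmed mean of M-values (TMM). Each of the 9 genes was counted in each of the 22 libraries, the lowest value being 38 counts for Tmem119 in intact male 1, and all 9 passed the filter on low counts in every comparison. Together they took 0.0313% to 0.0399% of a library's counts. Their summed level (mean ± SD) was 336 ± 18.3 CPM in the 6 intact females, 339 ± 16.4 CPM in the 5 intact males, 358 ± 15.9 CPM in the 6 OVX females and 365 ± 30.8 CPM in the 5 GDX males. In a bulk sample a larger number of microglia and more RNA per microglial cell cannot be told apart. The libraries also fell into 2 classes of average input fragment size. All 11 libraries of operated rats were in the shorter class, as were those of rats 2 and 5 among the intact males and rats 1 and 4 among the intact females. The other 7 libraries of intact rats were in the longer class.

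**Figure D1:**
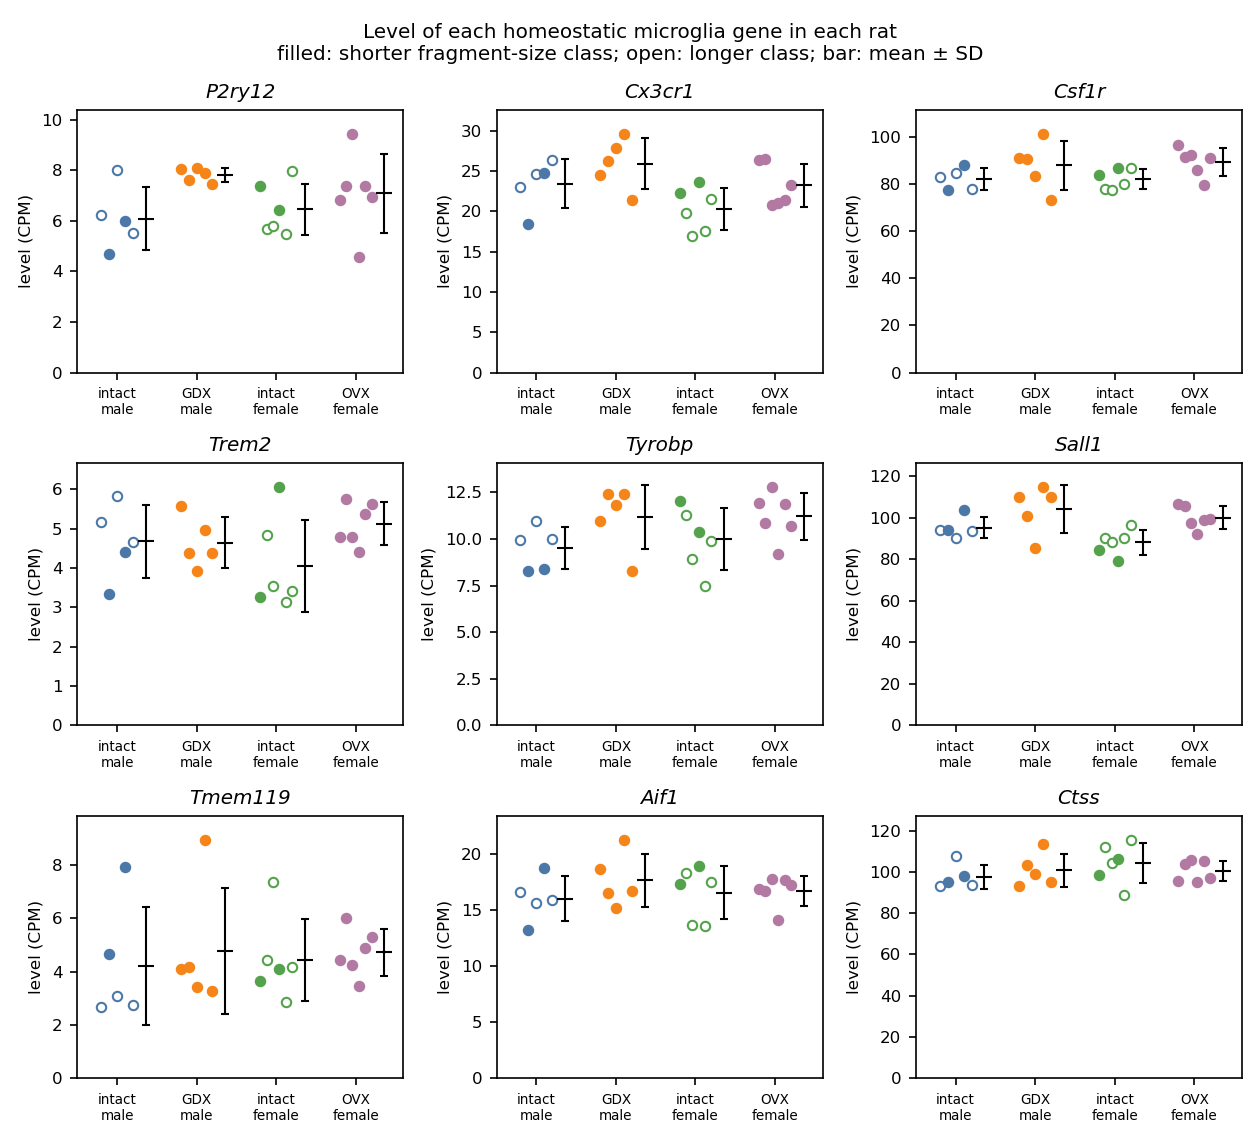
Level of each of the 9 genes in each rat on a linear axis in CPM, with 1 point per rat, filled for the shorter and open for the longer fragment-size class, and the group mean with its SD as a black bar. The groups overlapped for each gene, and single high points of Tmem119 were seen in GDX male 5, intact male 5 and intact female 3.

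P2ry12 (ENSRNOG00000013902) encodes the purinergic receptor with which surveying microglia sense nucleotides released by damaged cells. It was measured at 6.24, 4.67, 8.01, 6.00 and 5.52 CPM in intact males 1, 2, 3, 5 and 6 and at 8.04, 7.62, 8.10, 7.88 and 7.44 CPM in GDX males 1, 2, 4, 5 and 6. The GDX males were closely grouped, and intact male 3 was the only intact male within their range. Levels in intact females ran from 5.48 to 7.95 CPM (median 6.11) and those in OVX females from 4.57 to 9.42 CPM (median 7.16). OVX female 3 was the highest and OVX female 4 the lowest of the 22 rats, so the female groups overlapped widely. The order of the group means was intact males (6.09 ± 1.23, mean ± SD), intact females (6.45 ± 1.01), OVX females (7.09 ± 1.55) and GDX males (7.81 ± 0.280).

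Cx3cr1 (ENSRNOG00000018509) is the receptor for the neuronal chemokine fractalkine. The 5 intact males gave 23.0, 18.4, 24.6, 24.7 and 26.3 CPM and the 5 GDX males 24.6, 26.2, 27.9, 29.6 and 21.4 CPM, in the same order of rats. Rats 4 and 5 of the GDX group lay above each intact male and GDX male 6 below most of them. The female groups spanned 16.9 to 23.6 CPM with ovaries (median 20.7) and 20.8 to 26.5 CPM without (median 22.3). Intact female 3 was the lowest of the 22 rats and GDX male 5 the highest, and all 4 ranges overlapped. Mean levels followed the order intact females (20.3 ± 2.65), OVX females (23.2 ± 2.63), intact males (23.4 ± 3.03) and GDX males (25.9 ± 3.15), with OVX females and intact males almost equal.

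Csf1r (ENSRNOG00000018414) is the receptor tyrosine kinase for CSF-1 and IL-34, on which microglia depend for survival. Its level was 82.7, 77.2, 84.4, 88.0 and 77.6 CPM in the intact males, taken in the order of their numbers, and 90.9, 90.5, 83.3, 101 and 73.1 CPM in the GDX males. GDX male 5 was the highest and GDX male 6 the lowest of the 22 rats, so the GDX range enclosed all other groups. For intact females the lowest, median and highest levels were 77.3, 81.8 and 86.5 CPM, and for OVX females 79.4, 91.1 and 96.3 CPM. Of the OVX females 4 lay above the highest intact female. Means were nearly equal in intact females (82.0 ± 4.18) and intact males (82.0 ± 4.62), followed by GDX males (87.8 ± 10.4) and OVX females (89.3 ± 5.87).

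Trem2 (ENSRNOG00000013578) is a lipid-sensing surface receptor that signals through the adaptor encoded by Tyrobp. Each Trem2 value rested on 45 to 93 counts. Intact males reached 5.18, 3.33, 5.82, 4.39 and 4.66 CPM and GDX males 5.58, 4.39, 3.92, 4.97 and 4.37 CPM, and no GDX male exceeded the highest intact male. Among females the lowest level was 3.14 CPM with ovaries and 4.41 CPM without, the medians were 3.48 and 5.08 CPM, and the highest levels 6.06 and 5.76 CPM. Intact females 2 and 4 stood above the remaining intact females, and rat 4 was the highest of all 22. Ordered by mean, intact females (4.04 ± 1.16) came first, then GDX males (4.64 ± 0.642), intact males (4.68 ± 0.928) and OVX females (5.12 ± 0.540).

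Tyrobp (ENSRNOG00000020845), also called DAP12, is the adaptor that carries the signal of Trem2 and related receptors. In the intact males it was found at 9.93, 8.30, 10.96, 8.41 and 9.98 CPM and in the GDX males at 10.96, 12.4, 11.8, 12.4 and 8.28 CPM. GDX males 2, 4 and 5 lay above each intact male, whereas GDX male 6 lay just below the lowest of them. Values of 7.48 to 12.05 CPM (median 10.1) were found in intact females and of 9.20 to 12.8 CPM (median 11.4) in OVX females, again overlapping. The means were 9.52 ± 1.14 in intact males, 9.999 ± 1.64 in intact females, 11.2 ± 1.73 in GDX males and 11.2 ± 1.26 in OVX females, the last pair almost equal.

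Sall1 (ENSRNOG00000013907) encodes a zinc-finger transcription factor that maintains microglial identity. Levels of 94.2, 94.3, 90.4, 104 and 93.8 CPM in intact males stood against 110.2, 101, 85.7, 115 and 110.0 CPM in GDX males. GDX males 1, 5 and 6 exceeded each intact male, and GDX male 4 lay below them all. Intact females had a lowest level of 79.1, a median of 89.2 and a highest level of 96.8 CPM, and OVX females 92.3, 99.3 and 107 CPM. All but 1 of the 6 OVX females lay above the highest intact female, OVX female 4 being the exception. The means increased from intact females (88.2 ± 5.97) to intact males (95.3 ± 5.14), OVX females (100.2 ± 5.44) and GDX males (104 ± 11.6).

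Tmem119 (ENSRNOG00000000700) encodes a membrane protein used to tell microglia from other macrophages. The intact males came to 2.69, 4.67, 3.10, 7.92 and 2.76 CPM and the GDX males to 4.12, 4.16, 3.44, 8.94 and 3.26 CPM. Intact male 5 and GDX male 5 stood far above the rest of their groups. In intact females the range was 2.87 to 7.35 CPM (median 4.13), its top being rat 3, and in OVX females 3.46 to 6.01 CPM (median 4.67) with no such rat. The means of 4.23 ± 2.21 in intact males, 4.43 ± 1.53 in intact females, 4.73 ± 0.885 in OVX females and 4.78 ± 2.36 in GDX males differed by less than the smallest SD among them.

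Aif1 (ENSRNOG00000000853) encodes the calcium-binding protein IBA1, the usual histological stain for microglia and macrophages. It ranged from 13.2 to 18.7 CPM in intact males, from 15.2 to 21.2 CPM in GDX males, from 13.6 to 18.9 CPM in intact females and from 14.1 to 17.7 CPM in OVX females. GDX male 5 was the highest rat, and OVX female 4 stood below the other OVX females. The means were 16.0 ± 2.00 in intact males, 16.5 ± 2.34 in intact females, 16.7 ± 1.36 in OVX females and 17.6 ± 2.35 in GDX males, neighbours in this order differing by less than their SDs. Ctss (ENSRNOG00000021157) encodes cathepsin S, a lysosomal protease of myeloid cells that can also be secreted. Its ranges were 93.1 to 108 CPM in intact males, 93.2 to 113 CPM in GDX males, 88.7 to 115 CPM in intact females and 95.2 to 106 CPM in OVX females. Intact females held both the lowest and the highest value. Group means of 97.6 ± 5.89 in intact males, 100.3 ± 4.94 in OVX females, 101 ± 8.04 in GDX males and 104 ± 9.66 in intact females likewise differed by less than their SDs from one neighbour to the next.

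Promoter sequences from RefSeq (build GRCr8, 250 bases before and 50 after the gene start) were matched to 4 of the 9 genes by symbol: Cx3cr1, Csf1r, Trem2 and Ctss. PU.1, the product of Spi1, is the master factor of the myeloid lineage and binds DNA with a core of the letters GAGGAA, searched on both strands (reverse complement TTCCTC). This spelling was chosen after the matches of several related ones had been seen. These letters occurred in 3 of the 4 promoters, those of Csf1r, Trem2 and Ctss, and in 27.6% of the 33469 promoters of the table, and a match is a description of the letters only. The 100 bases before the start are shown for Ctss and Trem2, a protease and a receptor of the same cells, with the matched letters in capitals, which end 9 and 23 bases short of the start. Ctss lies on the plus strand at chr2:185775296-185775395 and Trem2 on the minus strand at chr9:20151780-20151879.
Ctss: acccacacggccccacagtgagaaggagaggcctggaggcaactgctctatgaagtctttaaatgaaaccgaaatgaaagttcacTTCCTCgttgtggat
Trem2: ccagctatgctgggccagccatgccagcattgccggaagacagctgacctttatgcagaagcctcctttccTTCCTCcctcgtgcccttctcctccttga

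The spread between rats of a group is given as the within-group coefficient of variation, with the median of the 500 genes of most similar count in brackets. It was 7.25% for Ctss (5.32%), 7.54% for Sall1 (5.42%) and 7.75% for Csf1r (5.62%), and 12.3% for Aif1 (9.66%), 12.4% for Cx3cr1 (8.35%), 13.9% for Tyrobp (11.7%), 16.9% for P2ry12 (14.5%) and 19.5% for Trem2 (17.7%). Tmem119 was the most variable of the 9 at 41.0% (17.9%), while each of the 9 lay above the median of its like-count genes.

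In GDX compared with intact males none of the 9 genes was called in the main fit. P2ry12 and Sall1 were called with the rats' numbers as a block, though those numbers did not pair the rats. A call meant that edgeR's quasi-likelihood test gave a Benjamini-Hochberg p, adjusted over every gene tested, below 0.1, and 1995 of 14931 genes met it (13.4%). That count was 1202 without GDX male 5, 796 with fragment-size class as a term and 440 among shorter-class libraries. At an unadjusted p under 0.05 there was 1 of 9, P2ry12, against 23.8% of all genes. P2ry12 was higher by a log2 fold change of 0.36 (95% interval 0.082 to 0.64), with an adjusted p of 0.106, just above the threshold, and all 5 GDX males exceeded the intact mean. In Cx3cr1, Csf1r, Sall1, Aif1 and Tyrobp 4 of 5 GDX males did so, in Ctss 3 and in Tmem119 1. The share of all genes with such counts is not given here. DESeq2 called 1 member, P2ry12, with an adjusted p of 0.0883, and edgeR's exact test called none. Counts of all genes called by these other tests are not given here, so their results stand without a background of their own. Without intact male 3, the highest of the intact males in this gene, edgeR called P2ry12 (adjusted p 0.0283). Over its alternatives the adjusted p ran from 0.0283 to 0.22. The P2ry12 difference was 0.55 among the libraries of the shorter class, which hold 2 intact males (adjusted p 0.112).

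The remaining estimates were smaller or less certain. Tyrobp differed by 0.23 (95% interval -0.021 to 0.49), Sall1 by 0.13 (95% interval -0.016 to 0.28), Cx3cr1 by 0.14 (95% interval -0.066 to 0.35) and Aif1 by 0.14 (95% interval -0.081 to 0.36) on the log2 scale. Without GDX male 6, the lowest of the GDX males in Tyrobp, that gene was called (adjusted p 0.0788, with 0.0788 to 0.436 over its alternatives). Without GDX male 4, the lowest of the GDX males in Sall1, Sall1 was called (adjusted p 0.0445, with 0.0445 to 0.745). Csf1r differed by 0.10 (95% interval -0.055 to 0.25), Ctss by 0.047 (95% interval -0.076 to 0.17) and Trem2 by -0.0091 (95% interval -0.36 to 0.34). A p that misses the threshold does not show equal levels, and differences anywhere within these intervals remained possible. The Tmem119 estimate, 0.16 (95% interval -0.54 to 0.87), was -0.18 without GDX male 5 and -0.41 among shorter-class libraries, so that its sign depended on 1 rat and on the class of libraries. The median of the 9 log2 fold changes was 0.14, with 8 of 9 above 0, where the median over all genes was 0.0021 with 50.5% above 0.

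**Figure D2:**
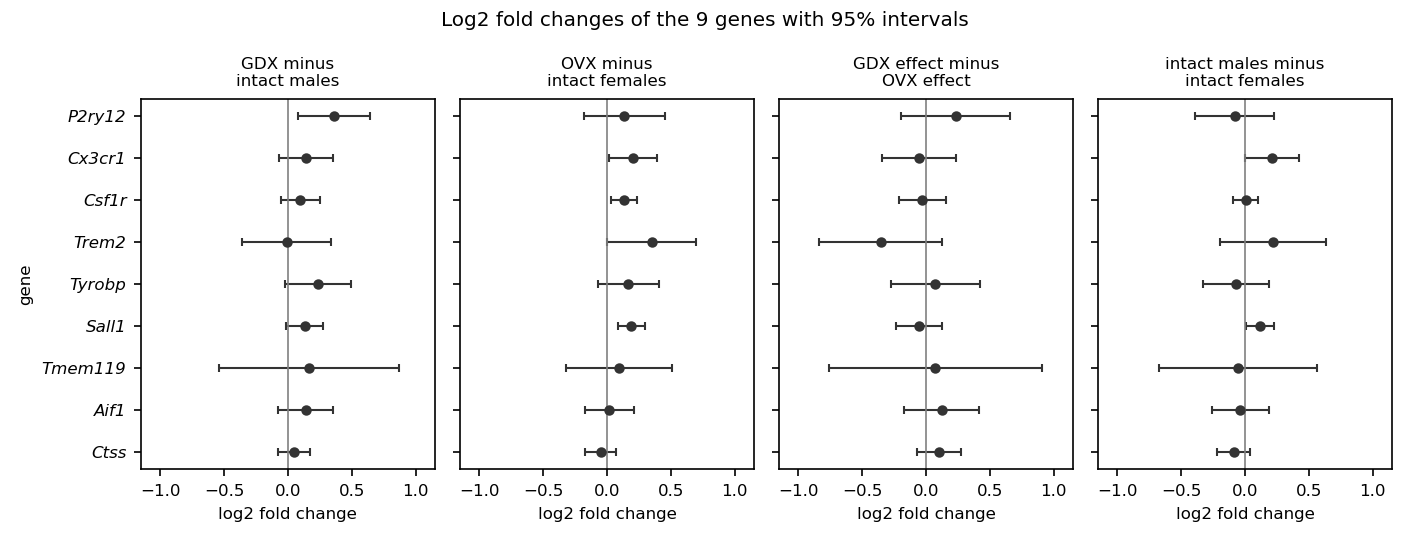
Log2 fold change of each gene (points) with its 95% interval (bars) in GDX against intact males, OVX against intact females, the difference between these effects, and intact males against intact females. Most intervals include 0, and the estimates for Tmem119 have the widest intervals of the 9.

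Further genes called in GDX males came from 4 of the 5 other lists drawn up around microglia. Other cells express some of these genes too, and in a bulk sample the cells behind a difference cannot be told. Of 11 further homeostatic genes 1 was called higher and 0 lower (median log2 fold change 0.13), against 6.78% higher and 6.58% lower over all genes. The gene called was Tgfbr1, a receptor subunit for TGF-beta, which maintains the homeostatic state (0.31 ± 0.091, log2 ± SE, adjusted p 0.0473). None of 8 microglial transcription factors was called by edgeR, DESeq2 or the exact test (median 0.16, with 1 at an unadjusted p under 0.05 by edgeR), and Spi1, which encodes PU.1, gave 0.15 ± 0.15. Of 8 ligands and partners of the members 4 were higher: Csf1, a ligand of Csf1r (0.23 ± 0.052, adjusted p 0.0165), Tgfb1 (0.31 ± 0.093, 0.0492), Apoe, a ligand of Trem2 that astrocytes also express (0.20 ± 0.060, 0.0555), and Cst3, an inhibitor of cathepsins (0.18 ± 0.062, 0.0928). The neuronal ligand Cx3cl1 gave -0.11 ± 0.059 and Il34 0.64 ± 0.30, neither of them called. Beside Ctss, 1 of 7 lysosomal proteases was higher, Ctsh (0.21 ± 0.069, adjusted p 0.0787), and Ctsb had most counts of these (0.037 ± 0.041, not called). DESeq2 called Ctsl higher as well, and the exact test called no protease. The calls of Tgfbr1, Tgfb1, Apoe, Cst3 and Ctsh were all lost without GDX male 5 (adjusted p 0.123, 0.128, 0.141, 0.227 and 0.202), and 1 or more of them without any single one of GDX males 2, 4 and 6 and intact males 1, 2, 5 and 6, whereas Csf1 was called without each rat in turn but neither with class as a term (adjusted p 0.153) nor among shorter-class libraries (0.185).

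The list of genes raised in activated microglia held both called genes and genes without counts. Of 12 listed, 7 were abundant enough to be tested and 3 rose: Lgals3, galectin-3 (0.70 ± 0.16, adjusted p 0.0162), Gpnmb (0.31 ± 0.084, 0.0317) and the phagocytic receptor Axl (0.17 ± 0.054, 0.061). Spp1, the gene of this list with most counts and also expressed by motor neurons, gave -0.21 ± 0.088 and Cd68 0.17 ± 0.26, and neither was called. At an unadjusted p under 0.05 there were 4 of 7, with 3 higher and Spp1 lower, against 23.8% of all genes. The summed level of the 12 genes was 328 ± 41.7 CPM in intact and 310 ± 9.46 CPM in GDX males. Which cells gave the differences of the called genes or of Spp1 cannot be told in a bulk sample. Axl missed the threshold without GDX male 1, 2 or 5 or intact male 1, 2 or 6 (adjusted p 0.114 to 0.129). Tnf had no counts in any of the 22 libraries, and Cst7 had none in 16.

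Markers of border macrophages, the macrophages of meninges and perivascular spaces that share Csf1r, Aif1, Tyrobp and Ctss with microglia, were higher in GDX than in intact males. Their summed level over 7 genes, Mrc1 having most counts, was 25.0, 26.3, 22.4, 20.1 and 15.9 CPM in intact males 1, 2, 3, 5 and 6 and 31.5, 34.6, 38.1, 44.4 and 38.3 CPM in GDX males 1, 2, 4, 5 and 6, without overlap. In females the sums were 33.8 ± 4.97 CPM (mean ± SD) with intact ovaries and 35.8 ± 4.73 after ovariectomy. Of 5 genes tested in males 3 rose: Stab1 (0.98 ± 0.13, adjusted p 0.00198), F13a1 (0.96 ± 0.20, 0.0121) and Mrc1 (0.85 ± 0.18, 0.0105). Cd163 (0.60 ± 0.34) and Lyve1 (0.18 ± 0.16) were not called, and Ms4a7, at 0 in 3 of the 22 libraries, and Pf4 were too low for this test. With class as a term Stab1 was called (adjusted p 0.0546) and Mrc1 (0.133) and F13a1 (0.134) were not, and among shorter-class libraries Stab1 (0.0684) and F13a1 (0.0959) were and Mrc1 (0.113) was not. Their part in the estimates for the 9 genes was not tested.

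Markers of other cell types differed in the same comparison. All 5 meningeal fibroblast markers tested rose, with a median log2 fold change of 1.57 and summed levels of 80.8 ± 33.2 CPM in intact and 244 ± 92.1 CPM in GDX males. The list holds Col1a1, which had most counts, Igf2, Slc6a13, Lum and Dcn. The 3 endothelial markers Flt1, with most counts, Cdh5 and Cldn5 rose as well (median 0.54; 68.9 ± 10.2 and 107 ± 15.3 CPM). Of 5 astrocyte markers Gfap, with most counts (0.38 ± 0.059), and Aqp4 (0.18 ± 0.044) rose, with summed levels of 5343 ± 240.5 and 6481 ± 353 CPM. Of 4 oligodendrocyte markers only Mbp, with most counts, was called, rising by 0.17 ± 0.053, while 2 of the 4 were below 0 (median 0.028), and the sums were 21924 ± 1303 and 23853 ± 1167 CPM. Of 4 neuron markers Rbfox3 (-0.33 ± 0.082) and Snap25 (-0.20 ± 0.054), the latter with most counts, were lower, the sums being 1158 ± 44.7 and 1025 ± 61.6 CPM. None of 5 motor neuron markers was called by edgeR or the exact test, 1 had an unadjusted p under 0.05 and DESeq2 called 1, Chat, lower; Prph had most counts and the sums were 391 ± 105 and 376 ± 33.9 CPM. Blood cell markers were scarce. The summed level of 5 lymphocyte genes was 0.319 ± 0.218 CPM in intact and 0.733 ± 0.530 CPM in GDX males, with Cd3e at 0 in 17 of the 22 libraries, and that of 4 monocyte or granulocyte genes, with S100a9 having most counts, was 0.860 ± 0.397 and 4.40 ± 3.15 CPM. None of these 9 blood cell genes passed edgeR's filter in this comparison, while the exact test, which keeps lower counts, called S100a8, S100a9 and Cd79b, among others, higher. The part of these cell types in the estimates for the 9 genes was not tested. Of the 25 listed genes called here, 7 were called with fragment-size class as a term and 8 among shorter-class libraries, and none changed sign in either. Gpnmb, Stab1, Gfap, Cdh5, Col1a1 and Igf2 were called in both fits, Slc6a13 in the first only and F13a1 and Lum in the second only. DESeq2 called all 25, and the exact test all but Cst3, Axl, Ctsh and Mbp. Among the cell-type markers above, Mbp missed the threshold without rat 4, 5 or 6 of the GDX males or rat 1, 2 or 6 of the intact males (adjusted p 0.101 to 0.167), Lum without GDX male 4 or 5 or intact male 5 (0.102 to 0.114) and Dcn without GDX male 5 (0.102).

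**Figure D3:**
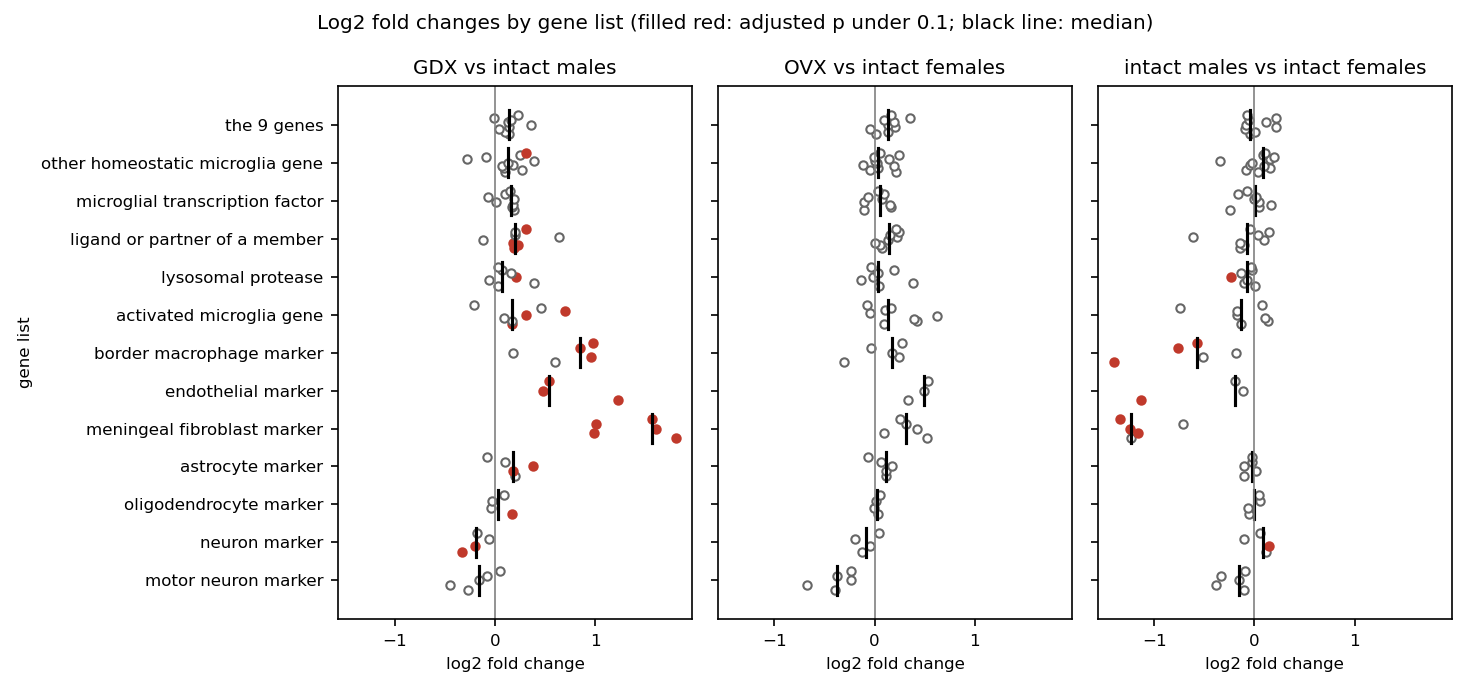
Log2 fold change of each tested gene (circles) by gene list in 3 comparisons, filled red at an adjusted p under 0.1, with the list median as a black line. In GDX males the border macrophage, endothelial and meningeal fibroblast lists hold called genes with values up to 1.81, and the 9 homeostatic genes lie between -0.0091 and 0.36.

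In OVX compared with intact females none of the 9 genes was called by edgeR, and the same test called 5 of 14910 genes (0.0335%), a count that ran from 0 without OVX female 1 or 6 to 113 without intact female 1. At an unadjusted p under 0.05 there were 4 of 9, all higher in OVX females, against 10.2% of all genes. These were Sall1 with a log2 fold change of 0.19 (95% interval 0.086 to 0.29), Csf1r with 0.13 (95% interval 0.028 to 0.23), Cx3cr1 with 0.20 (95% interval 0.012 to 0.39) and Trem2 with 0.35 (95% interval 9.1e-04 to 0.70). All 6 OVX females exceeded the intact mean in Sall1, Cx3cr1 and Trem2, and 5 of 6 in Csf1r. In P2ry12, Tyrobp and Aif1, which had no such p, 5 of 6 did so too, and in Tmem119 4 of 6. The share of all genes with such counts is not given here, so they stand without a background. DESeq2 called 1 member, Sall1, at an adjusted p of 0.0433, where edgeR gave 0.19. Over the alternatives the adjusted p of Sall1 ran from 0.0433 to 0.414. The exact test called no member. Counts of all genes called by DESeq2 and by the exact test, both larger than edgeR's 5, are given under processing.

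For the other 5 genes the estimates were 0.17 (95% interval -0.070 to 0.41) for Tyrobp, 0.13 (95% interval -0.18 to 0.45) for P2ry12 and 0.10 (95% interval -0.32 to 0.51) for Tmem119. Aif1 gave 0.018 (95% interval -0.17 to 0.21) and Ctss -0.049 (95% interval -0.17 to 0.070), which bound a change in these genes more tightly than in Tmem119. The median of the 9 was 0.13 with 8 of 9 above 0, against 0.0025 and 51.0% over all genes. Among shorter-class libraries, with 2 intact females, that median was 0.027: Sall1 then gave 0.29, Cx3cr1 0.022, Csf1r 0.071 and Trem2 0.15, and 6 of 9 were above 0, with Aif1 (-0.12) and Tyrobp (-0.0044) turned in sign. With class as a term these 2 turned as well (-0.11 and -9.9e-04). Ovariectomy and the shorter class cannot be fully separated with so few rats.

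No gene of any other list was called in this comparison by edgeR. DESeq2 called Ctsd and Stmn2 lower, and the exact test called S100a9 higher and Prph lower. At an unadjusted p under 0.05 the lists held 2 of 8 ligands and partners, 2 of 11 further homeostatic genes, 1 of 8 activated microglia genes, 3 of 7 proteases, and none of 8 transcription factors or 5 border macrophage markers. Over all genes 10.2% had such a p. The 3 endothelial markers all had such a p (median log2 fold change 0.49), as had 4 of 5 motor neuron markers (median -0.37, lower in OVX females), 2 of 4 neuron markers and 2 of 5 astrocyte markers. All 5 motor neuron markers had such a p between the fragment-size classes of intact rats too, lower in the shorter class, to which all OVX libraries belong (median 0.43, longer against shorter), so ovariectomy and class cannot be fully told apart for them. Meningeal fibroblast markers had none of 5 and oligodendrocyte markers none of 4. The 1 monocyte or granulocyte marker tested had such a p (log2 fold change 1.67). The summed level of 4 such genes was 1.33 ± 0.930 CPM in intact and 2.67 ± 0.305 CPM in OVX females. Summed levels in intact and OVX females were 86.8 ± 23.4 and 121 ± 17.1 CPM for endothelial, 463 ± 58.0 and 364 ± 57.7 CPM for motor neuron, 187 ± 81.3 and 246 ± 42.7 CPM for meningeal fibroblast and 22227 ± 1137 and 22740.2 ± 1168 CPM for oligodendrocyte markers. Their part in the estimates for the 9 genes was not tested either.

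The effects of gonadectomy in males and females were compared directly by an interaction term over all 22 libraries. By edgeR none of the 9 genes was called and 0 had an unadjusted p under 0.05, against 18 of 15562 genes called (0.116%) and 11.6% at the unadjusted level. The 18 became 1 without GDX male 5 and 275 without GDX male 1, the ends of its range over single rats left out. DESeq2 called none of the 9 either. Trem2 gave the largest difference, -0.35 (95% interval -0.84 to 0.13), with estimates of -0.0091 in males and 0.35 in females, but 0.26 and 0.15 among shorter-class libraries, where the order of the sexes turned. P2ry12 differed by 0.23 (95% interval -0.19 to 0.66) in the other direction. With class as a term in the interaction fit, none of the 9 differences changed sign, that of Trem2 included. For Sall1 the difference was -0.055 (95% interval -0.23 to 0.12), for Csf1r -0.028 (95% interval -0.21 to 0.15) and for Ctss 0.10 (95% interval -0.073 to 0.28), the narrowest intervals of the 9. Mrc1 (0.90 ± 0.22, adjusted p 0.129), Stab1 (0.71 ± 0.20, 0.164) and Lgals3 (0.60 ± 0.23, 0.293) were not called by edgeR, whereas DESeq2 called Mrc1 and Stab1, together with Cdh5 and Slc6a13. DESeq2's count over all genes, larger than edgeR's 18, is given under processing. For Tyrobp, Cx3cr1, Aif1 and Tmem119 the differences between males and females were 0.072, -0.055, 0.12 and 0.073, each with an interval that included 0.

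Between intact males and intact females none of the 9 genes was called, with 599 of 14937 genes called by edgeR (4.01%), 352 without intact male 1, 385 without intact male 5 and 34 among shorter-class libraries. At an unadjusted p under 0.05 there were 2 of 9 against 15.5% of all genes, both higher in males: Cx3cr1 by 0.21 (95% interval 0.0021 to 0.42) and Sall1 by 0.12 (95% interval 0.0093 to 0.22). DESeq2 and the exact test called none. Csf1r was nearly equal in the sexes, with 0.0045 (95% interval -0.094 to 0.10). Among the 4 intact libraries of the shorter class Cx3cr1 gave -0.079 and Sall1 0.28. The median of the 9 was -0.039 with 4 of 9 above 0.

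Border macrophage markers were lower in intact males than in intact females. Of 5 tested, 3 were lower in males, where 2.56% of all genes were: Cd163 (-1.40 ± 0.30, adjusted p 0.0241), a scavenger receptor for haemoglobin, Mrc1 (-0.76 ± 0.17, 0.0247) and Stab1 (-0.57 ± 0.16, 0.0754). The protease Ctsh was lower in males too (-0.23 ± 0.068, 0.0961), as were 3 of 5 meningeal fibroblast markers (Slc6a13 -1.34 ± 0.21, Igf2 -1.24 ± 0.35 and Dcn -1.16 ± 0.24) and the endothelial Cdh5 (-1.13 ± 0.16). Snap25 was higher in males (0.14 ± 0.035). The exact test called neither Snap25 nor Ctsh, and it also called the meningeal fibroblast marker Col1a1 lower in males. None of the 9 listed genes that edgeR called here changed sign among the 4 shorter-class libraries, where only Cdh5 was still called. With class as a term all 9 were called (adjusted p 0.00268 to 0.0875). A block for the rats' numbers, which did not pair them, left 4 called. The calls of Ctsh, Stab1 and Igf2 each failed when any 1 of 8 rats was left out, among them intact males 2, 5 and 6 and intact females 3, 4 and 6, with adjusted p of 0.141 to 0.206, 0.105 to 0.175 and 0.125 to 0.182, and that of Snap25 without intact male 1 or 2 or intact female 3 (0.101 to 0.122). Beyond Ctsh, no gene on the lists of microglial transcription factors, ligands and partners, further homeostatic genes, activated genes or proteases was called by edgeR, DESeq2 or the exact test. At an unadjusted p under 0.05 these lists held 0 of 8, 3 of 8, 1 of 11, 2 of 7 and 2 of 7 tested genes in that order, Ctsh included. Over all genes 15.5% had such a p. The 1 further homeostatic gene was higher in males, and those of the other lists were lower.

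GDX males and OVX females, all of the shorter class, also gave no call among the 9 genes, and 0 had an unadjusted p under 0.05. The background was 35 of 15084 genes at the adjusted threshold (0.232%) and 9.37% at the unadjusted one, the 35 being 23 without OVX female 1, and neither DESeq2 nor the exact test called a member. The estimates lay between -0.14 for Trem2 and 0.16 for Cx3cr1. Ctss was the most tightly bounded, at 0.0090 (95% interval -0.10 to 0.12). On the lists edgeR's quasi-likelihood test called no gene, and DESeq2 and the exact test each called 1, Tgfbr1, higher in GDX males (0.37 ± 0.079, with an adjusted p of 0.119 by edgeR). Both of these tests called more than 35 genes over all, as given under processing.

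Fragment-size class itself was compared within the 11 intact rats, longer against shorter, with sex as a term. None of the 9 genes was called and 0 had an unadjusted p under 0.05, against 1 of 15401 genes (0.00649%) and 7.69%. The count of 1 was 57 by DESeq2 and 210 without a filter on low counts. DESeq2 called none of the 9, and on the other lists it called Chat higher and Syt1 lower in the longer class. All 5 motor neuron markers had an unadjusted p under 0.05 by edgeR, each higher in the longer class (median log2 fold change 0.43). Tmem119 gave the largest estimate, -0.41 (95% interval -1.04 to 0.21), and Aif1 the next, -0.11 (95% interval -0.34 to 0.12). For Csf1r the estimate was -0.055 (95% interval -0.16 to 0.047) and for Sall1 0.033 (95% interval -0.081 to 0.15).

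Across the 22 rats, after subtraction of each group's mean log2 CPM, the 9 genes varied together to different degrees. Correlations are given as descriptions without a p, and their 22 points share the scaling of the libraries. The highest of the 36 pairs were Cx3cr1 with Csf1r (Pearson r 0.64, Spearman rho 0.63), Aif1 with Trem2 (r 0.61, rho 0.53), P2ry12 with Tyrobp (r 0.60, rho 0.57) and Cx3cr1 with Tyrobp (r 0.60, rho 0.46). Without the 2 rats farthest from the median of the gene named first, r was 0.53 for Cx3cr1 with Csf1r, 0.48 for Aif1 with Trem2, 0.50 for P2ry12 with Tyrobp and 0.46 for Cx3cr1 with Tyrobp. Among the 15 shorter-class rats the same 4 pairs gave 0.74, 0.64, 0.60 and 0.44. The median of all pairs was 0.38 (0.40 in the shorter class). Of the 3 pairs below 0, all with Sall1, that with Tyrobp gave r -0.21 (shorter class -0.0048), while those with Cx3cr1 and Trem2 were near 0 (-0.021 and -0.017) and above it in the shorter class (0.22 and 0.34), where Trem2 with Tyrobp was below 0 (-0.11). Aif1 had the highest median with the other 8 (0.51) and Sall1 the lowest (0.0997), whereas in the shorter class the highest was that of Tmem119 (0.63, against 0.23 over all rats) and the lowest those of P2ry12 and Sall1 (0.29 and 0.29). Tmem119 was near 0 with P2ry12 (0.0056), Tyrobp (0.030) and Trem2 (0.050) over all rats, and at 0.33, 0.40 and 0.51 in the shorter class.

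**Figure D4:**
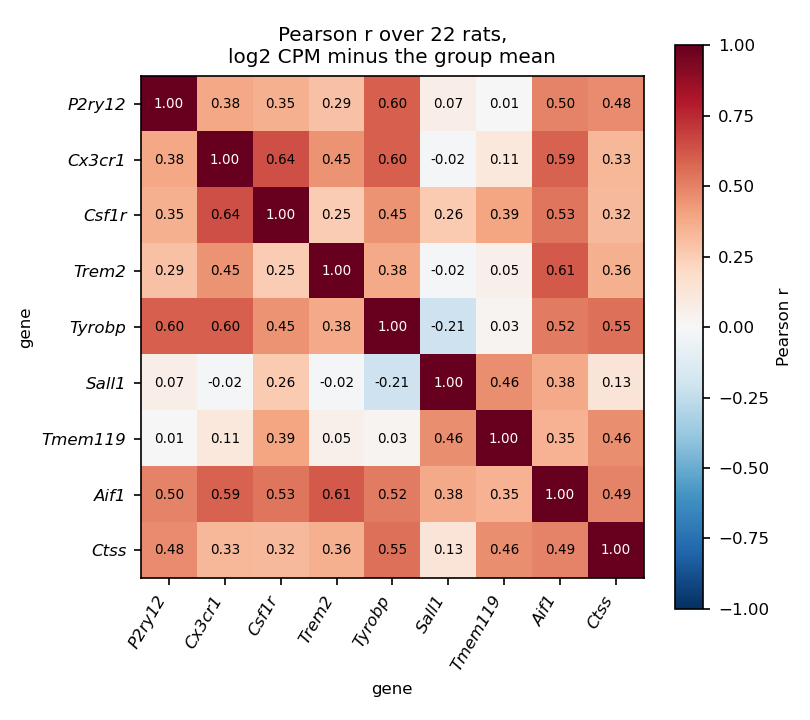
Pearson r between the 9 genes over 22 rats, from log2 CPM minus the group mean, with the value printed in each cell and colour from blue (-1) to red (1). Cx3cr1 with Csf1r reaches 0.64.

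Among the 10 other genes whose deviations were most like the mean deviation of the 9, out of 15562 genes, were Npc2 (r 0.80, rho 0.74), Mapk3, Agpat4, Mbp, Tf, Ctsl, Gsn and S100b (r 0.73, rho 0.70). Npc2 encodes a cholesterol carrier of the lysosome and Ctsl a lysosomal protease. Mbp encodes myelin basic protein, and Tf, Gsn and S100b are also made by oligodendrocytes. The mean of 4 oligodendrocyte markers followed the mean of the 9 genes with r 0.82 and rho 0.87, 0.75 without the 2 rats farthest from the median of the 9 and 0.83 in the shorter class. For 11 further homeostatic microglia genes r was 0.67 (shorter class 0.71), and for 4 neuron markers it was -0.47 (-0.60). Proteases gave 0.49, ligands and partners 0.40, astrocyte markers 0.26, transcription factors 0.22 and activated microglia genes 0.20. In the shorter class these 5 values were 0.51, 0.59, 0.46, 0.093 and 0.17, and rho for ligands and partners over all rats was 0.18. Border macrophage (-0.067) and meningeal fibroblast (0.030) markers showed almost no relation, while endothelial, motor neuron and monocyte or granulocyte markers gave -0.32, -0.38 and -0.29. Their rho was -0.36, -0.43 and -0.29. Without the 2 rats farthest from the median of the 9, r was -0.026, -0.23 and -0.34, and in the shorter class -0.050, -0.46 and -0.45. The part of tissue composition in this shared variation was not tested.

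Taken gene by gene, Aif1 followed the oligodendrocyte markers most closely (r 0.81, rho 0.76), then Cx3cr1 (0.67), P2ry12 (0.65), Ctss (0.59), Trem2 (0.54), Tyrobp (0.53), Csf1r (0.42), Tmem119 (0.32) and Sall1 (0.23). This order did not hold in the shorter class, where the values were 0.84 for Aif1, 0.73 for Tmem119, 0.67 for P2ry12, 0.62 for Cx3cr1, 0.55 for Ctss, 0.48 for Trem2, 0.43 for Sall1, 0.43 for Csf1r and 0.35 for Tyrobp. Without the 2 rats farthest from its median Tmem119 gave -0.0086.

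The high Tmem119 values of GDX male 5, intact male 5 and intact female 3 were followed into other genes after they had been seen. The 5 genes most like Tmem119 over the 22 rats were Selplg (r 0.90, rho 0.88), Csad (0.83, 0.79), Lyn (0.82, 0.73), Galm (0.76, 0.71) and Rasal3 (0.76, 0.85). Without those 3 rats r was 0.78 for Selplg, 0.60 for Csad and 0.64 for Lyn over 19 rats, and in the shorter class it was 0.86, 0.82 and 0.86. Selplg encodes the ligand of P-selectin, is itself on the list of further homeostatic microglia genes, and lies next to Tmem119 among protein-coding genes in RefSeq (build GRCr8). It stood at 29.7 CPM in GDX male 5, 27.7 in intact male 5 and 23.0 in intact female 3, with a highest value of 24.5 in the remaining 19. Csad stood at 42.4, 42.9 and 41.5 CPM in these rats, in the same order, and at most at 40.5 CPM in the remaining 19. Lyn, a kinase of myeloid cells encoded elsewhere, was high in the 2 males (27.3 and 24.8 CPM) and not in intact female 3 (18.9 CPM), the highest of the remaining rats being 22.4 CPM. Coro1c, beyond Selplg, and Iscu, on the other side of Tmem119, gave r -0.23 and 0.21, both turned in sign without those 3 rats (0.16 and -0.15). Other members in the same rats were not uniformly high: GDX male 5 was the highest of 22 in Cx3cr1, Csf1r, Sall1 and Aif1, whereas intact female 3 was the lowest in Cx3cr1.

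**Figure D5:**
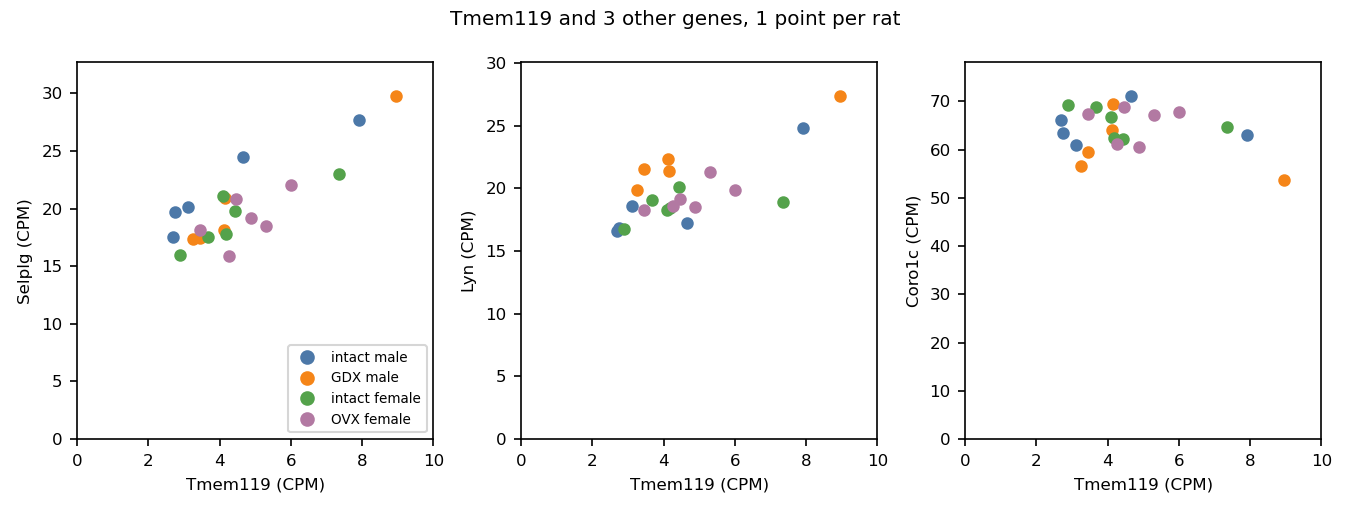
Level of Selplg, Lyn and Coro1c against Tmem119, all in CPM, with 1 point per rat coloured by group. Selplg is high where Tmem119 is high, Lyn is so except in intact female 3, and Coro1c, a neighbouring gene, is not.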

How the data were processed

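The authors trimmed the sequence reads of 22 libraries with Trimmomatic, aligned them to rat build Rnor_6.0 and deposited raw counts per gene from Subread. For the aligner the study's methods name Hisat2 and the submitters' notes TopHat2 2.0.13, and which of them gave the deposited counts is not known. Here those counts were the only values used. They were fitted in R 4.3.3 with edgeR 4.0.16 (low-count filter of its default design-based rule, TMM scaling, quasi-likelihood test, Benjamini-Hochberg adjustment over every gene tested), once for each comparison on the libraries compared, and calls were made at an adjusted p under 0.1. CPM values came from 1 fit scaled over all 22 libraries (15562 genes kept), log2 CPM with a prior count of 2. Alternatives were DESeq2 1.42.0, edgeR's exact test on genes with at least 5 counts, another scaling, no filter, fragment-size class as a term or its shorter class alone, a block for the rats' numbers, and fits without each rat in turn. Each test was also run on simulated data, the outcome of which is not given here. Total counts ran from 12371756 to 17571887. No libraries were left out, and no pair was identical.

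The 9 genes, the gene lists and the comparisons were chosen with earlier results of these data known. The genes named were the 9, those called on a list together with each list's most counted gene and genes at 0, and those most like the mean of the 9 over the rats, except that some genes chosen by this rule are not named. Those compared with Tmem119, and others given singly, were chosen after their values had been seen. Itgam, Ccr2, Pecam1 and Col1a2 were on the lists and were not analysed here. With counts not divided by gene length, levels were not compared between genes. Promoters are from RefSeq GRCr8, a build other than that of the counts.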

Additional observations from a re-analysis of the deposited data

Results flagged for a closer look

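In each group the highest and the lowest rat were compared with the nearest other rat of that group by Dixon's ratio of gap to range, for each of the 9 genes and each summed marker list. Of 92 groups, 7 were past the 95% limit, and chance alone flags about 1 in 20. Tmem119 stood apart in GDX male 5 at 8.94 CPM (nearest rat 4.16) and in intact female 3 at 7.35 CPM (nearest 4.43). Sall1 was high in intact male 5 at 104.1 CPM (nearest 94.3), and Aif1 was low in OVX female 4 at 14.1 CPM (nearest 16.7). Summed monocyte or granulocyte markers were high in intact male 1 at 1.56 CPM (nearest 0.788) and in intact female 1 at 3.15 CPM (nearest 1.44), both resting on few counts. Summed neuron markers were high in OVX female 4 at 1130.1 CPM (nearest 1035.0). The causes were not tested.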

How the results depend on the processing

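Leaving out each rat in turn gave 0 to 1 of the 9 genes called in GDX males. Genes called in all ranged from 1202 (without GDX male 5) to 2446 in GDX males, 0 (without OVX female 1 or 6) to 113 (without intact female 1) in OVX females, 1 (without GDX male 5) to 275 (without GDX male 1) for the interaction, 352 (without intact male 1; 385 without intact male 5) to 777 between intact sexes, 23 (without OVX female 1) to 44 between operated sexes and 0 to 1 for fragment-size class. The members' median interaction ran from -0.083 to 0.14. Sign changes of uncalled genes gave these ranges of log2 fold change. In GDX males Tmem119 ran from -0.18 to 0.53 and Trem2 from -0.11 to 0.079. In OVX females Tmem119 ran from -0.0031 to 0.30 and Aif1 from -0.033 to 0.066. For the interaction Tmem119 ran from -0.27 to 0.44, Csf1r from -0.083 to 0.032, Cx3cr1 from -0.13 to 0.0073 and Sall1 from -0.091 to 0.0063. Between intact sexes Tmem119 ran from -0.42 to 0.15, Aif1 from -0.11 to 0.022 and Csf1r from -0.023 to 0.026. Between operated sexes Tmem119 ran from -0.33 to 0.13, Tyrobp from -0.055 to 0.092, Csf1r from -0.076 to 0.037 and Ctss from -0.034 to 0.035. For class Trem2 ran from -0.11 to 0.33, Cx3cr1 from -0.18 to 0.013, P2ry12 from -0.055 to 0.15, Tyrobp from -0.072 to 0.12 and Sall1 from -0.016 to 0.092.

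DESeq2 called 1 of the 9 genes in GDX males and 1 in OVX females. Over all genes it called 174 in OVX females, 243 for the interaction, 130 between operated sexes and 57 for class. The exact test called 84 in OVX females and 93 between operated sexes, and no filter gave 11 in OVX females, 33 for the interaction and 210 for class. Tyrobp between operated sexes, close to 0, was 0.00012 by DESeq2, 0.0040 without filter and 0.0038 by the exact test. With class as a term 796 genes were called in GDX males, 3 in OVX females and 6 for the interaction; among shorter-class libraries, where fewer rats remained, 440 in GDX males and 34 between intact sexes. In these fits Tmem119 in GDX males was -0.41 and -0.41, Trem2 0.26 and 0.26, and in OVX females Aif1 was -0.11 and -0.12 and Tyrobp -0.00099 and -0.0044. Between intact sexes the shorter class gave 0.71 for Tmem119, -0.079 for Cx3cr1, -0.039 for Csf1r and -0.25 for Trem2. All operated rats are of the shorter class, so class and gonadectomy cannot be fully told apart.

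The rats' numbers did not pair them, since correlations of equal numbers ran from -0.114 to 0.0626. With the number as a replicate block 2 of the 9 genes, P2ry12 and Sall1, were called in GDX males, 21 of the 25 listed genes called there and 4 of the 9 called between intact sexes were called again, and 1274 genes in GDX males, 0 in OVX females and 255 between intact sexes were called over all. Under the block Trem2 in GDX males was 0.14, Aif1 between intact sexes 0.0029, and between operated sexes Tmem119 was -0.084 and Tyrobp 0.034. The cause of these changes was not tested. With other scaling factors no count moved beyond 1.5 times. Tmem119, Trem2 and P2ry12 had the lowest counts of the 9. Counting alone would give them a coefficient of variation of 12.1%, 12.1% and 9.90%, against 41.0%, 19.5% and 16.9% within groups.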
